A study of Mus musculus with 6 samples.

Results

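The Wnt pathway was examined here as 55 genes chosen by name out of 23238 gene symbols in the count tables: 19 Wnt ligands, 10 Frizzled receptors with the co-receptors Lrp5 and Lrp6, 4 R-spondins with the receptors Lgr4, Lgr5 and Lgr6, 10 secreted inhibitors, 4 feedback genes and 3 transducers. RNA sequencing was done on whole lung of wild-type (WT) mice in 2 groups, those given PM and those given the vehicle Veh (PBS), both by the route abbreviated i.t. in the labels. The title calls the exposure chronic and the comparison asks how it changes lung gene expression, but the labels give no dose, duration, age or sex and leave PM unexplained. Each group had 3 tables, but all 23282 entries of PBS replicate 2 equalled those of PBS replicate 1, so these tables were counted as 1 library and 3 PM libraries were compared with 2 PBS libraries. Nothing in the labels ties samples to individual animals, and p-values therefore reflect the spread among these libraries, which may be technical.

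Wnt ligands are secreted lipid-modified glycoproteins that bind a Frizzled receptor together with Lrp5 or Lrp6. In the canonical branch this stops the breakdown of beta-catenin (Ctnnb1), which enters the nucleus and switches on target genes with the DNA-binding partners Lef1 and Tcf7, and several of those targets, such as Axin2, Nkd1, Notum, Znrf3 and Rnf43, in turn damp the signal. In the lung, Wnt2 from the mesenchyme helps specify the respiratory endoderm, and in the adult organ Wnt ligands of fibroblasts support the stem cell function of alveolar type 2 cells.

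Total counts were 8798953, 7558460 and 7410200 in PM replicates 1, 2 and 3, and 8827202 and 7660937 in PBS replicates 1 and 3. A gene with no count in a library could still stand at up to 0.351 to 0.430 CPM in PM and 0.348 to 0.370 CPM in PBS (a limit of 3 counts, for counting error only; CPM are counts brought to a common library total after scaling). Rn45s, the ribosomal RNA precursor, took 15.7% to 25.4% of counts in PM and 16.3% and 18.2% in PBS. Lung identity was clear from the summed level of alveolar type 2 markers, 21150 to 24270 CPM in PM and 18870 and 23150 CPM in PBS. Over 14057 tested genes, 32 were called, 20 higher and 12 lower in PM (edgeR's quasi-likelihood test, Benjamini-Hochberg adjusted p below 0.05), and with library totals in place of the usual scaling 51 were called, 40 higher and 11 lower.

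Wnt2, the most abundant Wnt ligand of these lungs per exon length, was the only member called, and it was lower in PM. Of the 55 members, 36 passed the filter on low counts and could be tested. In either direction 1 of 36 was called, where 0.228% of all tested genes were. In the lower direction that was 1, where 0.0854% of all tested genes were, and in the higher direction 0 were, where 0.142% of all were. At an unadjusted p below 0.05, 7 members were lower (Wnt2, Wnt7a, Fzd2, Wif1, Znrf3, Lrp5 and Lrp6) against a background of 6.05% of tested genes, and 1 was higher (Wnt11) against 7.26%. All PM libraries lay below all PBS libraries for 10 of the 36 members, against 16.1% of tested genes, and above them for 2, Wnt11 and Fzd8, against 15.5%. The median log2 fold (PM minus PBS) of the 36 was -0.10, beside 0.01 over all tested genes, and 26 folds were below 0, or 72.2% of members against 48.9% of tested genes. With another scaling, 26 or 27 of the 36 were below 0, and with a library left out 22 to 27.

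The sequence before the start of 3 genes is shown because these had the largest log2 decreases among members at an unadjusted p below 0.05. Each line gives the 250 bases upstream of a RefSeq start site (GRCm38.p6, the same assembly as mm10), read 5′ to 3′ on the gene's strand: Wnt2 at chr6:18030446-18030695, minus strand; Wnt7a at chr6:91411354-91411603, minus strand; Wif1 at chr10:121033754-121034003, plus strand. The capitals mark matches to a GATA motif.
Wnt2: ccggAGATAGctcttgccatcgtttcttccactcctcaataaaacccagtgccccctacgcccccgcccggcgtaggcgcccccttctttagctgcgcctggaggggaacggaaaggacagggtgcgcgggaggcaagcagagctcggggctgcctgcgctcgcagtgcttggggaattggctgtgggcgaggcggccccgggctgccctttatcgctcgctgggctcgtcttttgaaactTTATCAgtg
Wnt7a: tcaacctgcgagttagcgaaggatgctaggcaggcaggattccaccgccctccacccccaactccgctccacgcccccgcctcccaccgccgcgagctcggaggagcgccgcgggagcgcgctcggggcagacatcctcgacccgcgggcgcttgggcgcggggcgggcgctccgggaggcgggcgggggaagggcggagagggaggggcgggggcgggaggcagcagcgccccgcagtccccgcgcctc
Wif1: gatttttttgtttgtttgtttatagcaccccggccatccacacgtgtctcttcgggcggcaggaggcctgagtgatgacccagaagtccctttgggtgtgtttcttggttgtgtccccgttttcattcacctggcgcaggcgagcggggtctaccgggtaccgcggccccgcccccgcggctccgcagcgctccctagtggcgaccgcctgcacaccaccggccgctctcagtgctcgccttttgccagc

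These windows are rich in G and C, with 63.6% in Wnt2, 77.6% in Wnt7a and 62.8% in Wif1. They were searched on both strands for 4 motifs picked after the windows had been read: the TCF/LEF core (CTTTG followed by 2 letters that are each A or T), GATA (those letters with A or T before them and A or G after them), a T-box core (GGTGTGA) and a forkhead motif (TGTTTAC). The motifs do not overlap one another in these windows. Wnt2 held 2 GATA matches, starting 246 and 9 bases before the start site, and 0 matches of the other motifs, and Wnt7a and Wif1 held 0 of any. Among all 32851 windows of that length in the table, 14.8% held the TCF/LEF core, 26.5% GATA, 3.33% the T-box core and 3.17% the forkhead motif. Of 45 windows that belong to 36 members, 5 (11.1%) held the TCF/LEF core and 7 (15.6%) GATA. These are the members for which a window was available, not the 36 tested members. They include untested genes such as Wnt1 and lack tested ones such as Fzd2. A match is a run of letters, not evidence of binding.

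Wnt2 lies on chromosome 6 at 17985474 to 18032772, and the window shown precedes a start site inside that span. It stood at 18.8, 14.6 and 17.1 CPM in PM replicates 1, 2 and 3, against 35.8 and 34.8 CPM in PBS replicates 1 and 3. All PM libraries were below both PBS libraries, with 16.9 ± 2.11 CPM in PM (SD, n = 3) and 35.3 ± 0.698 CPM in PBS (SD, n = 2). An SD from 2 libraries is a poor measure of a group's spread. The log2 fold was -1.06 ± 0.17 SE, and edgeR's Benjamini-Hochberg adjusted p was 0.0379. The underlying counts were 161, 102 and 136 in PM and 309 and 282 in PBS, and no exon of another annotated gene overlaps those of Wnt2. Without PBS replicate 1, PBS replicate 3 or PM replicate 1 edgeR's Benjamini-Hochberg adjusted p was 0.444, 0.266 and 0.0813, and the log2 fold was -1.04, -1.08 and -1.15. Without PM replicates 2 and 3 in turn the call was kept, and the fold was -0.97 and -1.07.

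**Figure D1:**
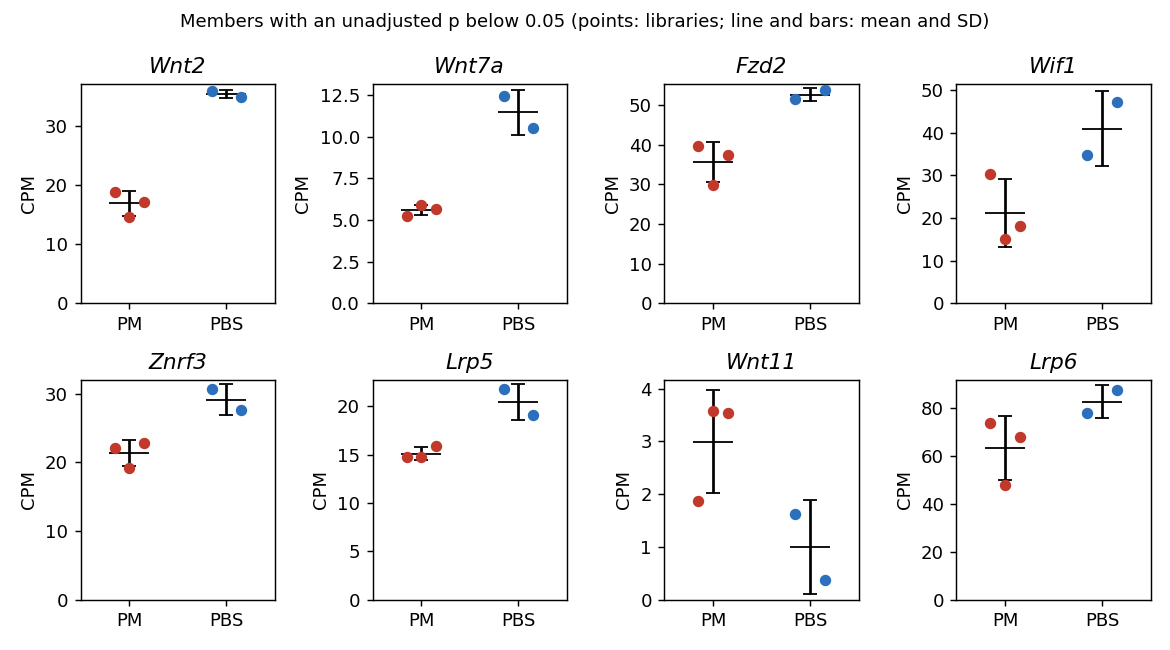
Levels (CPM, linear axes from 0) of the 8 members with an unadjusted p below 0.05, PM left and PBS right; points are libraries, lines and bars the mean and SD. In 7 panels the PM points lie below the PBS points, as for Wnt2 at 14.6 to 18.8 CPM in PM and 34.8 and 35.8 CPM in PBS, while for Wnt11 they lie higher.

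The share of Wnt2 in the ligand pool was lower in PM. This share uses the same Wnt2 counts as the fold above and is not a separate result. Per kb of exon, so that genes of unequal length can be set beside each other, the levels of all 19 ligands summed to 20.7, 19.4 and 21.1 CPM per kb in PM and 31.0 and 28.5 CPM per kb in PBS. Wnt2 made up 40.3%, 33.5% and 36.01% of that sum in PM replicates 1, 2 and 3, against 51.2% and 54.2% in PBS replicates 1 and 3. As a share of the ligands' raw counts it was 27.7% (95% exact binomial interval 24.1% to 31.5%), 22.2% (18.5% to 26.3%) and 24.8% (21.3% to 28.7%) in PM, and 38.7% (35.3% to 42.2%) and 41.2% (37.5% to 45.0%) in PBS. These intervals cover counting error only, and no PM interval reaches a PBS interval. The 18 other ligands together stood at 12.4, 12.9 and 13.5 CPM per kb in PM and 15.1 and 13.03 CPM per kb in PBS, where the groups overlap.

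**Figure D2:**
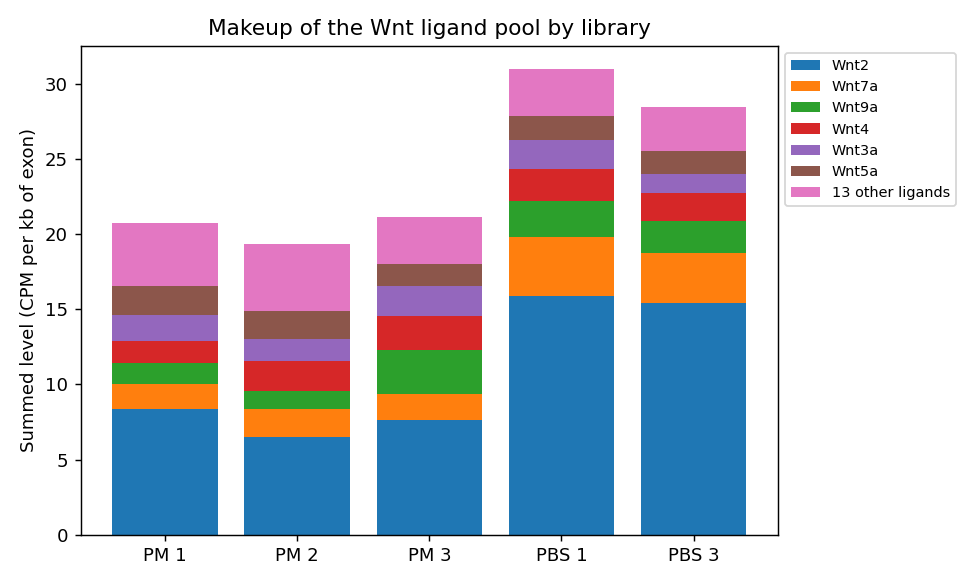
Summed level of the 19 Wnt ligands (CPM per kb of exon) in each library, PM left and PBS right, with the 6 most abundant ligands as coloured parts. The bars are lower in PM (19.4 to 21.1) than in PBS (28.5 and 31.0), and the Wnt2 part is the one that differs most.

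Wnt7a, a ligand best known from patterning of limb and female reproductive tract, had a fold close to that of Wnt2 but did not pass the test. It stood at 5.26, 5.88 and 5.67 CPM in PM and 12.4 and 10.5 CPM in PBS, with no overlap between the groups. Its log2 fold was -1.03 ± 0.27 SE (95% interval -1.62 to -0.44), and edgeR's Benjamini-Hochberg adjusted p was 0.122. Per kb it stood at 1.77 CPM per kb in PM, below Wnt4 (1.93) and Wnt9a (1.83), and at 3.61 CPM per kb in PBS, where Wnt2 was the one ligand above it. It lies on chromosome 6 at 91363981 to 91411353. Per 1000 CPM of summed alveolar type 1 markers there were 0.923, 1.08 and 0.907 CPM of Wnt7a in PM and 1.71 and 1.42 in PBS, without overlap. The ratio depends on the markers summed, and the cells that made Wnt7a were not identified here. Wnt11, a ligand of the non-canonical branch, lay higher in PM at a low level, 1.87, 3.58 and 3.53 CPM in PM and 1.62 and 0.370 CPM in PBS. It had 17 counts in all in PBS, its log2 fold was 1.55 ± 0.69 SE (edgeR, Benjamini-Hochberg adjusted p = 0.360), and a processed pseudogene shares 10.1% of its exon bases on the opposite strand. The fold of Wnt11 moved with the PBS library left out, to a log2 fold of 2.96 without PBS replicate 1 and 0.87 without PBS replicate 3.

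The remaining 7 tested ligands had Benjamini-Hochberg adjusted p-values from 0.584 to 0.981 in edgeR. Wnt9a stood at 4.67, 4.01 and 9.58 CPM in PM and 8.11 and 7.16 CPM in PBS, so PM replicate 3 lay above both PBS libraries and the other PM libraries below. Wnt5a, the main non-canonical ligand, stood at 12.3 ± 1.72 CPM in PM and 10.8 ± 0.106 CPM in PBS, with a log2 fold of 0.19 (95% interval -0.33 to 0.70). Wnt4 had a log2 fold of -0.03, Wnt3a of 0.08, Wnt7b, a ligand of lung epithelium, of 0.42, Wnt5b of 0.80 and Wnt10b of -0.86. The intervals of Wnt5b (-0.45 to 2.05) and Wnt10b (-2.43 to 0.71) are wide, since no library held more than 26 counts of Wnt5b or 17 of Wnt10b. Among the 9 ligands that were too low to test, Wnt1, Wnt8a and Wnt16 were at 0 counts in every library, and the most abundant, Wnt2b, had 43 counts over the 5 libraries.

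Markers of alveolar fibroblasts, a cell type known to express Wnt2 in adult mouse lung, were lower along with it. Of 10 tested markers, 1 was called lower, Limch1, a cytoskeletal regulator (log2 fold -0.71 ± 0.12 SE; edgeR, Benjamini-Hochberg adjusted p = 0.0379), and all 10 folds were negative, from -0.90 to -0.35 with a median of -0.69. Over all tested genes 0.0854% were called lower, and 48.9% of folds were below 0. At an unadjusted p below 0.05, 8 of the 10 markers were lower, against 6.05% of tested genes. This list and those that follow were chosen with earlier results of these data known, so such shares only describe the lists. Tcf21, a transcription factor that defines these fibroblasts, stood at 50.6, 44.4 and 37.6 CPM in PM and 56.0 and 66.8 CPM in PBS, and Pdgfra, a growth factor receptor, at 97.6, 79.7 and 110.2 CPM in PM and 170.1 and 160.0 CPM in PBS. The 10 markers summed to 3794 to 4653 CPM in PM and 6303 and 6641 CPM in PBS, and none was at 0. For each 1000 CPM of that sum there were 4.05, 3.85 and 4.24 CPM of Wnt2 in PM and 5.39 and 5.52 CPM in PBS. Wnt2 was thus also lower relative to this sum, by less than on its own. The sum is weighted to abundant markers such as Inmt (mean 2004 CPM) and Limch1 (1174 CPM), so the ratio depends on the markers summed. Single folds ran from -0.90 (Itga8) to -0.35 (Npnt), and 0 of the 10 were below that of Wnt2 (-1.06). In bulk tissue, fewer cells of a type and less RNA per cell cannot be told apart, and the part of the lower markers in the fall of Wnt2 was not tested.

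Other cell type lists did not share one direction. Adventitial fibroblast markers had a median log2 fold of -0.13 over 8, mesenchymal collagens and matrix genes 0.11 over 8, smooth muscle and myofibroblast genes 0.12 over 8, pericyte genes -0.39 over 6 and mesothelial genes -0.28 over 6. Alveolar type 1 markers had a median of -0.30 with all 8 folds below 0 and 4 at an unadjusted p below 0.05, and they summed to 5458 to 6257 CPM in PM and 7257 and 7377 CPM in PBS. Alveolar type 2 markers had a median of 0.07 over 8, club cell markers 0.11 over 6 and ciliated cell markers 0.61 over 8. General endothelial markers had a median of -0.38 over 8, 6 of them lower at an unadjusted p below 0.05, and capillary markers -0.30 over 8. Macrophage markers had a median of 1.04 over 8 and summed to 871.5 to 1461 CPM in PM and 236.8 and 456.9 CPM in PBS. In these lists 0 members were called by edgeR, and between 0 and 6 per list passed an unadjusted p of 0.05, which 13.3% of all tested genes did.

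**Figure D3:**
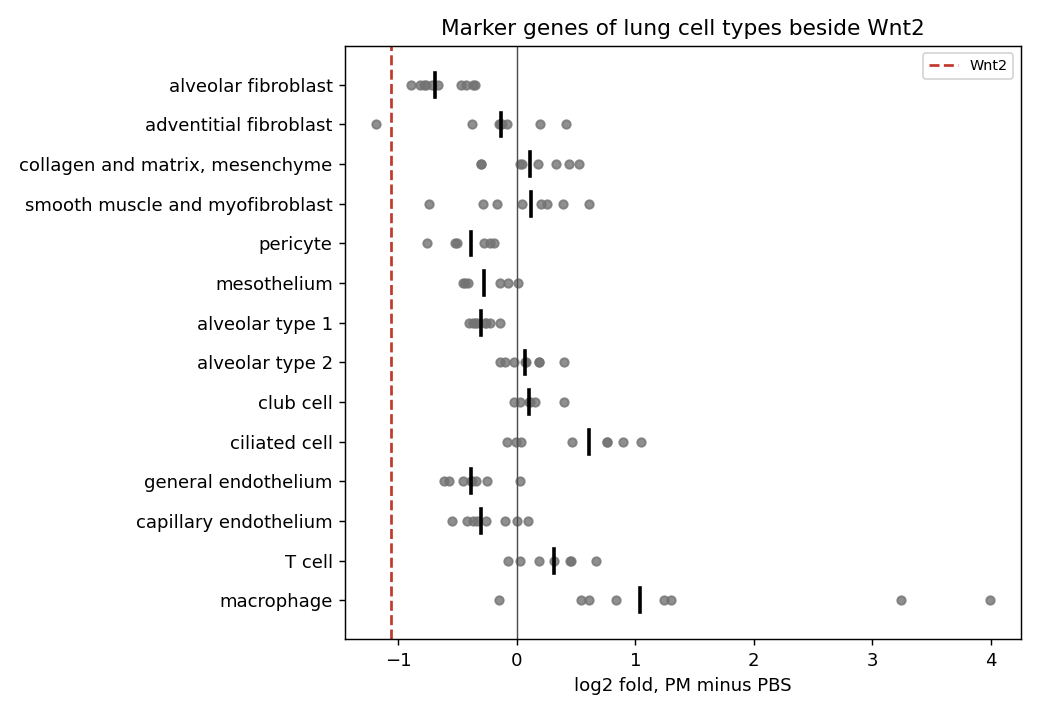
log2 folds (PM minus PBS) of tested marker genes of 14 lung cell types; each point is a gene, black bars are list medians and the dashed line is Wnt2 at -1.06. The alveolar fibroblast points all lie left of 0 with a median of -0.69, and macrophage points lie mostly right with a median of 1.04.

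Transcription factors and signals of the lung mesenchyme were also compared, as genes that act upstream of or beside Wnt2. Of 12 tested, 0 were called, 10 folds were below 0 and the median log2 fold was -0.30. Tbx2, Tbx4, Tbx5 and Foxf1, which pattern lung mesenchyme, were lower at an unadjusted p below 0.05. That is 4 of 12 genes against 6.05% of all tested genes, in a list also chosen with earlier results known. Tbx5 stood at 66.2, 65.6 and 68.3 CPM in PM and 88.9 and 94.1 CPM in PBS, and its log2 fold was -0.46 ± 0.11 SE (edgeR, Benjamini-Hochberg adjusted p = 0.115). Tbx4 had a log2 fold of -0.52, Tbx2 of -0.41 and Foxf1 of -0.36, at Benjamini-Hochberg adjusted p-values from 0.183 to 0.212 in edgeR.

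R-spondins amplify Wnt signals by binding Lgr receptors and removing Znrf3 and Rnf43 from the cell surface. None of the 3 tested genes of this arm passed an unadjusted p of 0.05. Rspo1 stood at 26.7, 33.3 and 30.0 CPM in PM and 35.8 and 32.6 CPM in PBS (log2 fold -0.19, 95% interval -0.55 to 0.16). Rspo3 stood at 8.42, 10.9 and 9.84 CPM in PM and 9.97 and 10.6 CPM in PBS, and 13.1% of its exon bases overlap an antisense gene. The groups overlap for both. Lgr4 stood at 2.34 and 2.01 CPM in PM replicates 1 and 2, at 6.18 CPM in PM replicate 3, and at 2.55 and 3.33 CPM in PBS. PM replicate 3 was also the library with 19 of the 34 counts of Lgr5, the stem cell receptor, which was too low to test.

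Among receptors, 9 of 10 tested folds were below 0 and none passed the adjusted threshold. Fzd2, the most abundant Frizzled per kb, stood at 39.6, 30.0 and 37.5 CPM in PM and 51.4 and 53.7 CPM in PBS, with no overlap. Its log2 fold was -0.56 ± 0.15 SE (95% interval -0.90 to -0.22), and edgeR's Benjamini-Hochberg adjusted p was 0.145. It lies on chromosome 11 at 102604431 to 102608058. Relative to the summed alveolar fibroblast markers the groups overlapped, with 8.52, 7.89 and 9.26 CPM of Fzd2 per 1000 CPM of markers in PM and 7.75 and 8.52 in PBS.

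Both co-receptors were lower in every PM library. Lrp5 stood at 14.7, 14.8 and 15.9 CPM in PM and 21.8 and 19.1 CPM in PBS (log2 fold -0.44 ± 0.19 SE), and Lrp6 at 73.8, 48.0 and 68.0 CPM in PM and 77.8 and 87.5 CPM in PBS (-0.38 ± 0.17 SE). Their Benjamini-Hochberg adjusted p-values in edgeR were 0.335 and 0.371, and PM replicate 2 was the lowest library for Lrp6. Fzd1 stood at 18.9, 16.5 and 19.5 CPM in PM and 19.8 and 24.8 CPM in PBS, all PM libraries below PBS, with PM replicate 3 close to PBS replicate 1. Fzd7 stood at 23.96, 20.35 and 21.82 CPM in PM and 23.41 and 25.44 CPM in PBS, where the groups overlap (22.04 ± 1.81 and 24.4 ± 1.43 CPM). Fzd8 stood at 8.42, 8.31 and 8.83 CPM in PM and 7.88 and 7.78 CPM in PBS, so its groups did not overlap, although the log2 fold of 0.12 had a 95% interval of -0.45 to 0.70. Fzd3, Fzd4, Fzd5 and Fzd6 had log2 folds between -0.16 and 0.00, and Fzd9 and Fzd10, with 5 and 8 counts in all, were not tested.

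Among secreted inhibitors, Wif1, which binds Wnt ligands outside the cell, showed the largest difference. It stood at 30.3, 15.2 and 18.2 CPM in PM and 34.8 and 47.2 CPM in PBS, all PM libraries below PBS, with PM replicate 1 close to PBS replicate 1. The log2 fold was -0.94 ± 0.28 SE (95% interval -1.59 to -0.30), and edgeR's Benjamini-Hochberg adjusted p was 0.191. It lies on chromosome 10 at 121034004 to 121100642. Per 1000 CPM of summed alveolar type 1 markers there were 5.31, 2.78 and 2.90 CPM of Wif1 in PM and 4.79 and 6.39 in PBS, where the groups overlap. Those markers were themselves lower in PM (median log2 fold -0.30), so the ratio depends on the markers summed. Alveolar type 2 markers had a median of 0.07, and a ratio to them was not taken. The cells that made Wif1 were not identified here. Sfrp1, a decoy receptor of the Frizzled-related family, stood at 25.2, 58.5 and 32.0 CPM in PM and 29.9 and 22.7 CPM in PBS. PM replicate 2 was far above the others, and the log2 fold was 0.55 ± 0.37 SE (edgeR, Benjamini-Hochberg adjusted p = 0.581), and 0.12 without that library. Dkk3, a divergent member of the Dickkopf family, stood at 34.9, 35.4 and 38.7 CPM in PM and 46.0 and 36.7 CPM in PBS, where the groups overlap. Notum, an enzyme that strips the lipid from Wnt ligands, averaged 6.41 ± 1.62 CPM in PM and 6.40 ± 0.203 CPM in PBS, with a log2 fold of 0.00 (95% interval -0.72 to 0.72), and antisense genes overlap its exons. Sfrp2 and Dkk2 had log2 folds of -0.02 and -0.11. Dkk1 and Dkk4, which block Lrp5 and Lrp6, had 1 count each over the 5 libraries, and Sfrp4 and Sfrp5 had 11 and 21.

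The feedback genes that are commonly read as a sign of canonical signalling had negative log2 folds, from -0.46 to -0.03, and none was called. Axin2, a scaffold of the beta-catenin destruction complex, stood at 12.7, 14.5 and 18.3 CPM in PM and 18.8 and 23.1 CPM in PBS. All PM libraries lay below PBS, with PM replicate 3 only just so. Its log2 fold was -0.46 ± 0.21 SE (95% interval -0.93 to 0.01; edgeR, Benjamini-Hochberg adjusted p = 0.379), and an antisense gene overlaps 4.86% of its exon bases. Znrf3, the membrane ubiquitin ligase that removes Frizzled receptors, stood at 22.1, 19.2 and 22.8 CPM in PM and 30.7 and 27.5 CPM in PBS, with no overlap. Its log2 fold was -0.45 ± 0.17 SE (edgeR, Benjamini-Hochberg adjusted p = 0.285). Rnf43, its paralog, had 7.23 ± 2.43 CPM in PM and 7.35 ± 0.0929 CPM in PBS. Nkd1, an inhibitor that binds Dishevelled, was the most abundant feedback gene per kb, and PM replicate 3 at 186.5 CPM lay above both PBS libraries (152.4 and 155.2 CPM), whereas PM replicates 1 and 2 at 127.6 and 118.0 CPM lay below.

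The transducers differed little. Ctnnb1 stood at 547.4, 561.2 and 594.7 CPM in PM and 616.4 and 600.1 CPM in PBS. The PM libraries were all lower, yet the log2 fold was only -0.10 with a 95% interval of -0.33 to 0.14, and RNA level says nothing of the protein's stability, at which the pathway acts. Lef1 stood at 28.1, 24.8 and 23.5 CPM in PM and 30.4 and 25.3 CPM in PBS, with an antisense gene over 34.5% of its exon bases. Tcf7 stood at 3.62, 2.01 and 4.41 CPM in PM and 2.78 and 3.33 CPM in PBS. Lef1 and Tcf7 are also T cell genes, and T cell markers summed to 75.0 to 109.9 CPM in PM and 66.8 and 83.7 CPM in PBS, with a median log2 fold of 0.32 over 7 and 0 called by edgeR (2 higher at an unadjusted p below 0.05).

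**Figure D4:**
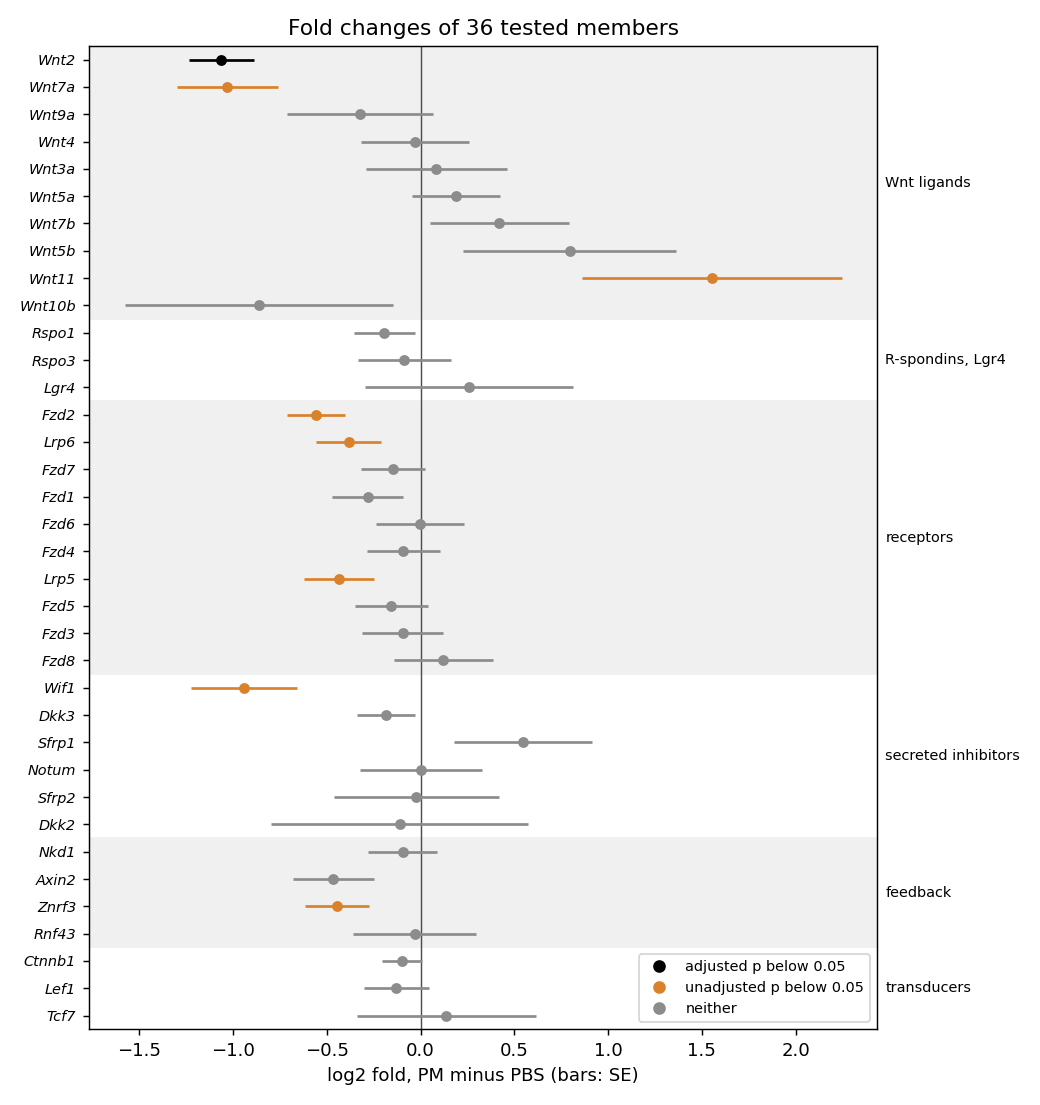
log2 folds (PM minus PBS) with SE of the 36 tested members, grouped by role; black marks an adjusted p below 0.05, orange an unadjusted p below 0.05. Wnt2 is the only black point, and 26 of 36 points lie left of 0.

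Levels per exon length ranged widely among members. Ctnnb1 was the most abundant member per kb, at 156.7 CPM per kb in PM and 167.9 CPM per kb in PBS, followed by Nkd1 at 31.6 and 33.7 and Rspo1 at 16.3 and 18.6. In PM, Wnt2 at 7.48 CPM per kb lay below Dkk3 (10.8), Fzd2 (9.74), Wif1 (9.25) and Sfrp1 (8.83). In PBS, Wnt2 at 15.7 CPM per kb lay above Fzd2 (14.4), Dkk3 (12.3) and Sfrp1 (6.02) and below Wif1 (17.9). Exon length was the union of annotated exons, and the isoforms in use were not measured.

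**Figure D5:**
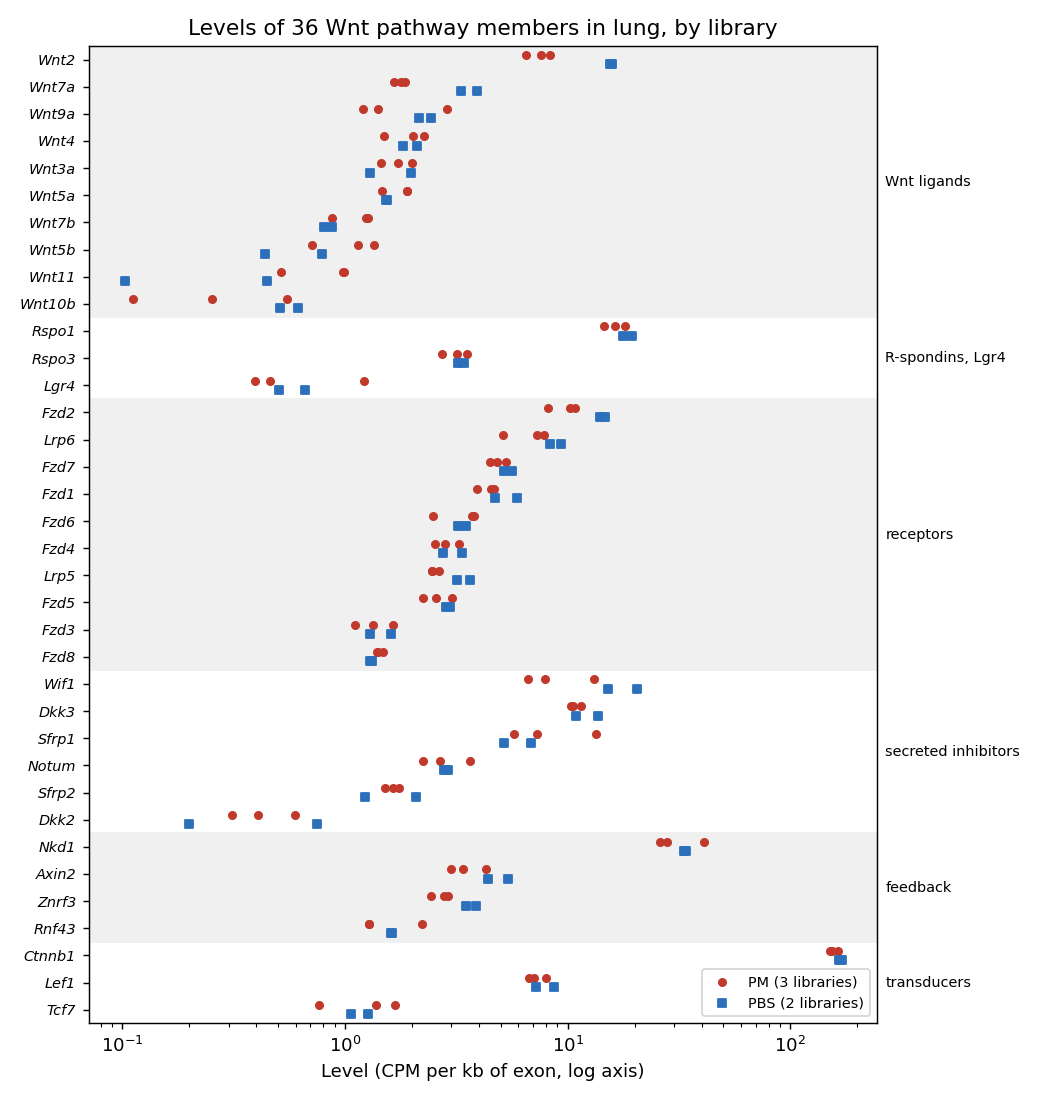
Level of each tested member (CPM per kb of exon, log axis) in every library, grouped by role; red circles are PM and blue squares PBS. Wnt2, Wnt7a, Fzd2 and Wif1 are shifted to lower levels in PM, and most other members have overlapping points.

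PM replicate 2 was the lowest of the 5 libraries for 13 of the 36 members (36.1%), where it was the lowest for 25.5% of all tested genes. PM replicate 1 was the lowest for 10 (27.8%), against 16.7% of tested genes, and PM replicate 3 for 5 (13.9%), against 19.5%. PBS replicate 1 was the lowest for 1 (2.78%), against 18.2%, and PBS replicate 3 for 7 (19.4%), against 20.2%. The haemoglobin share was 0.632% to 1.82% in PM, and 5.42% in PBS replicate 1 against 1.60% in PBS replicate 3. Of fat markers, Adipoq stood at 10.4, 1.29 and 10.7 CPM in PM and 1.62 and 0.741 CPM in PBS, and the part of such adjoining tissue in the members' values was not tested.

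Beyond the 55 members, 93 further genes of the pathway were examined in 8 lists, which leave out the mesenchyme regulators above. Of the 79 tested, 1 was called higher and 0 lower. With an unadjusted p below 0.05 there were 6 higher genes, or 7.59% against 7.26% of all tested genes, and 8 lower ones, or 10.1% against 6.05%. The median log2 fold was -0.01. The called gene was Cd44, an adhesion receptor that is a beta-catenin target in gut and is also made by many leukocytes. It stood at 228.7, 258.7 and 235.8 CPM in PM and 137.2 and 151.8 CPM in PBS, with a log2 fold of 0.74 ± 0.12 SE (edgeR, Benjamini-Hochberg adjusted p = 0.0379). Its list, commonly used beta-catenin targets, had a median of 0.42 over 12. Within it Sox9, a progenitor transcription factor, stood at 3.04, 7.31 and 4.79 CPM in PM and 1.85 and 1.48 CPM in PBS, whereas Tnfrsf19 and the guidance receptor Ephb3 lay lower in every PM library. Tnfrsf19 stood at 52.0, 54.3 and 50.2 CPM in PM and 83.3 and 80.1 CPM in PBS (log2 fold -0.65 ± 0.12 SE; edgeR, Benjamini-Hochberg adjusted p = 0.0525), and Ephb3 at 38.7, 39.99 and 53.9 CPM in PM and 73.7 and 66.7 CPM in PBS.

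The genes that secrete Wnt ligands had a median log2 fold of 0.06 over 7, with Wls, the ligand carrier, at 0.08 and Porcn, the acyltransferase that adds the lipid, at -0.27. Tmed2, a cargo receptor of the early secretory pathway, was the one of them with an unadjusted p below 0.05 (log2 fold 0.37, PM above PBS in every library). The destruction complex had a median of -0.05 over 12, with Gsk3b, its kinase, at -0.04, and the Dishevelled and kinase list -0.03 over 8. Neither the destruction complex nor the Dishevelled list held a member at an unadjusted p below 0.05 or a call by edgeR. Nuclear partners of beta-catenin had a median of 0.03 over 14, with Tcf7l2 at 0.05 and the coactivator Crebbp at -0.25 (unadjusted p below 0.05). Co-receptors and alternative receptors had a median of -0.20 over 10, with Lrp4 at -0.33 and Ryk at -0.24 lower and Ror1 at 1.68 higher before adjustment of p (below 0.05). Ror1, a receptor tyrosine kinase for Wnt5a, stood at 4.21, 3.30 and 1.89 CPM in PM and 0.464 and 1.48 CPM in PBS. Further inhibitors had a median of -0.21 over 5, with Dact3, a Dishevelled-binding antagonist, at -0.60 (unadjusted p below 0.05). Planar cell polarity genes had a median of -0.01 over 11, where the polarity cadherin Celsr1 (0.69) and Prickle3 (0.34) lay higher and Prickle2 (-0.32) and Daam2 (-0.74) lower, each with an unadjusted p below 0.05. None of these passed edgeR's test after Benjamini-Hochberg adjustment.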

How the data were processed

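Lung RNA of 3 PM and 3 PBS samples was sequenced from SENSE mRNA-Seq libraries (Lexogen), per the labels' protocols. Per the submitters' processing notes, TopHat, Cufflinks and the build mm10 are named, with roles, versions, the counter, annotation and strand use not given in the sources used here. Deposited values were raw read counts by gene symbol. Without known strand use, reads of overlapping antisense genes cannot be told apart. The table of PBS replicate 2 equals that of replicate 1 throughout and carries the header of replicate 1, so the pair was used once. A blank entry was left out, and of entries sharing a symbol the one with the highest total was kept (44 set aside, 0.0246% of counts).

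Counts were tested with edgeR 4.0.16 in R 4.3.3 (filterByExpr, TMM scaling, robust quasi-likelihood test, two-sided, no covariates), with Benjamini-Hochberg adjustment over 14057 genes at 0.05. The procedure was also run on simulated data, whose outcome is not given here. SE is the log2 fold divided by the square root of F, and intervals use the fit's degrees of freedom. Levels per kb use the union of exons in GENCODE M21. Coordinates and promoter sequences are from RefSeq GRCm38.p6, whose promoter table held 36 of the 55 members. Members and lists were chosen with earlier results of these data known. Members were given per library if called, at an unadjusted p below 0.05, without overlap at 5 CPM or more, or among the 3 most abundant per kb of their role. The 18 marker lists, 8 pathway lists and 1 list of lung mesenchyme regulators were described by counts and medians, with no list test; marker lists of lymphatic endothelium, B cells and red cells had medians of 0.01, 0.06 and -1.21, and the list of adjoining muscle, fat and thymus 0.93. Alternatives were other scalings and filters, libraries left out, a replicate block, limma-voom (limma 3.58.1), DESeq2 1.42.0, non-robust estimation, an adjusted p of 0.10, all 6 tables, and no Rn45s or haemoglobin counts.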

Additional observations from a re-analysis of the deposited data

How the results depend on the processing

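Wnt2 was lower in PM under all 15 alternative fits (log2 fold -1.15 to -0.97 with a library left out), and its call was kept except without PBS replicate 1, PBS replicate 3 or PM replicate 1, and with non-robust estimation (-1.06; edgeR, Benjamini-Hochberg adjusted p = 0.0569; 0 members called). The number of members called was 0 to 1 with a library left out, and 3 with all 6 tables as deposited, where Wnt7a (-1.07) and Fzd2 (-0.54) were called too; that fit counts 1 library 2 times. Over all genes, 32 calls became 1 to 427 with a library left out (1 and 6 when PBS replicates 1 and 3 were dropped, 12, 106 and 427 when PM replicates 1, 2 and 3 were), 51 with library totals only, 275 with no filter, 382 with DESeq2, 206 at an adjusted p of 0.10 and 635 with all 6 tables. The replicate number as a block gave 353 calls over all genes, and 1 member, Wnt2 (-0.97). The deviations of same-numbered libraries had a correlation of -0.03 for number 1 and 0.06 for number 3. With 2 PBS libraries their deviations mirror each other, and PM replicate 2 has no PBS partner. Whether the numbers pair the samples therefore cannot be decided. Of the 22 members given per library, folds changed sign for 5 with a library left out: Lef1 without PBS replicate 1 (range over libraries left out -0.26 to 0.0093), Rspo3 without PM replicate 1 (-0.17 to 0.011), Nkd1 without PM replicate 2 (-0.32 to 0.031; 0.0057 with the replicate block), and Lgr4 and Tcf7 without PM replicate 3 (-0.43 to 0.53 and -0.10 to 0.39); none of these was called. The causes of these changes were not tested. Depth limits what can be said of 9 of 19 ligands and 4 of 7 R-spondin and Lgr genes, which had too few counts for a test.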
